A study of Mus musculus with 5 samples.

Results

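Most mitochondrial proteins are made in the cytosol and carried into the organelle by an import machinery, and 35 genes of it were followed during the reprogramming of fibroblasts from mouse embryos (strain ICR). They were the rows of the gene tables that map to a protein-coding mouse gene named Timm or Tomm with a number, plus Samm50, Pam16, Dnajc19, Grpel1, Mtx1, Mtx2, Pmpca, Pmpcb, Chchd4 and Gfer, 35 of the 29267 rows in all. There were 5 groups with 1 library each. At day 4 of reprogramming the cells expressed either Flag, as the control, or CypD (cyclophilin D, the matrix protein encoded by Ppif that regulates the mitochondrial permeability transition). At day 8 the cells were an untreated control, cells given mastoparan (a peptide of wasp venom), or cells given paraquat (a herbicide that cycles electrons to oxygen). The series title names the mitoflash, a brief burst of signal in a mitochondrion, as what the genes are regulated by. The sample labels give CypD expression for all 3 day-8 libraries, while the design text names it for day 4 only. Ppif had 112 counts in Flag, 2629 in CypD, 90 in the day-8 control, 95 with mastoparan and 79 with paraquat, so a raised Ppif was seen in the day-4 CypD library and in no day-8 library. The sources used here do not give doses, the reprogramming factors, the number of embryos or the driver of the CypD construct.

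Precursors enter through the TOM complex of the outer membrane, whose receptors Tomm20, Tomm22 and Tomm70a hand them to the Tomm40 channel. From there the SAM complex inserts beta-barrel proteins, the Chchd4 and Gfer relay folds small cysteine-rich proteins of the intermembrane space, and small Tim chaperones take carrier proteins to TIM22 in the inner membrane. Presequence proteins go through TIM23, are pulled in by a motor built around mitochondrial Hsp70, and lose their presequence to the peptidase Pmpca and Pmpcb.

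With 1 library per group, every difference here compares libraries, not conditions, and has no replicate check and no p-value. Total expected counts ran from 2426015 with paraquat to 3426702 in CypD. Levels are given as CPM, counts for each 1000000 of the TMM-scaled library, and 95% intervals of folds and sums are exact and cover counting error only. All 11 fibroblast markers looked at, among them Col1a1 and Thy1, were counted in every library, with summed levels between 6563 and 7087 CPM. Vim alone gave 3406 to 3864 CPM of the sum, which hides single markers that went opposite ways. Dcn had 48.9 CPM in Flag, 54.2 in CypD, 24.0 in the day-8 control, 26.7 with mastoparan and 13.0 with paraquat. Thy1 had 33.9 CPM in Flag, 47.8 in CypD, 66.5 in the day-8 control, 60.4 with mastoparan and 77.1 with paraquat. The 6 epithelial markers summed to 191 to 208 CPM at day 4 and 639 to 728 CPM at day 8, and the 6 pluripotency markers to 3.76 to 10.4 CPM over the 5 libraries. The 4 endothelial markers summed to at most 5.61 CPM with Cdh5 at 0 in all libraries, the 4 immune markers to at most 18.5 CPM with Adgre1 at 0 in all, and the 4 neural markers to between 26.9 CPM with paraquat and 75.0 CPM in Flag. The part of these marker levels in the differences below was not tested, and in bulk RNA fewer cells of a type and less RNA per cell cannot be told apart.

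Of the 35 genes, 33 passed a filter of a mean of 1 CPM in each comparison. Tomm20l, a paralog of the receptor Tomm20, had 1 count in Flag and 0 in the other 4 libraries, and Timm8a2, a paralog of Timm8a1, had 1 count with mastoparan and 0 elsewhere. A count of 0 allows up to 3 counts, which is 0.869 to 1.30 CPM in these libraries. The 35 genes together had 3812 CPM in Flag (95% interval 3736 to 3888), 3983 in CypD (3917 to 4050), 3224 in the day-8 control (3161 to 3288), 3399 with mastoparan (3332 to 3468) and 3923 with paraquat (3842 to 4004). On the CPM scale the day-8 control and mastoparan libraries were the lowest, and the paraquat library lay between the day-4 libraries. Summed on the deposited TPM scale (transcripts for each 1000000, corrected for length) the genes had 4817 in Flag, 4865 in CypD, 3862 in the day-8 control, 3899 with mastoparan and 4039 with paraquat, so there all 3 day-8 libraries lay below both day-4 libraries.

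**Figure D1:**
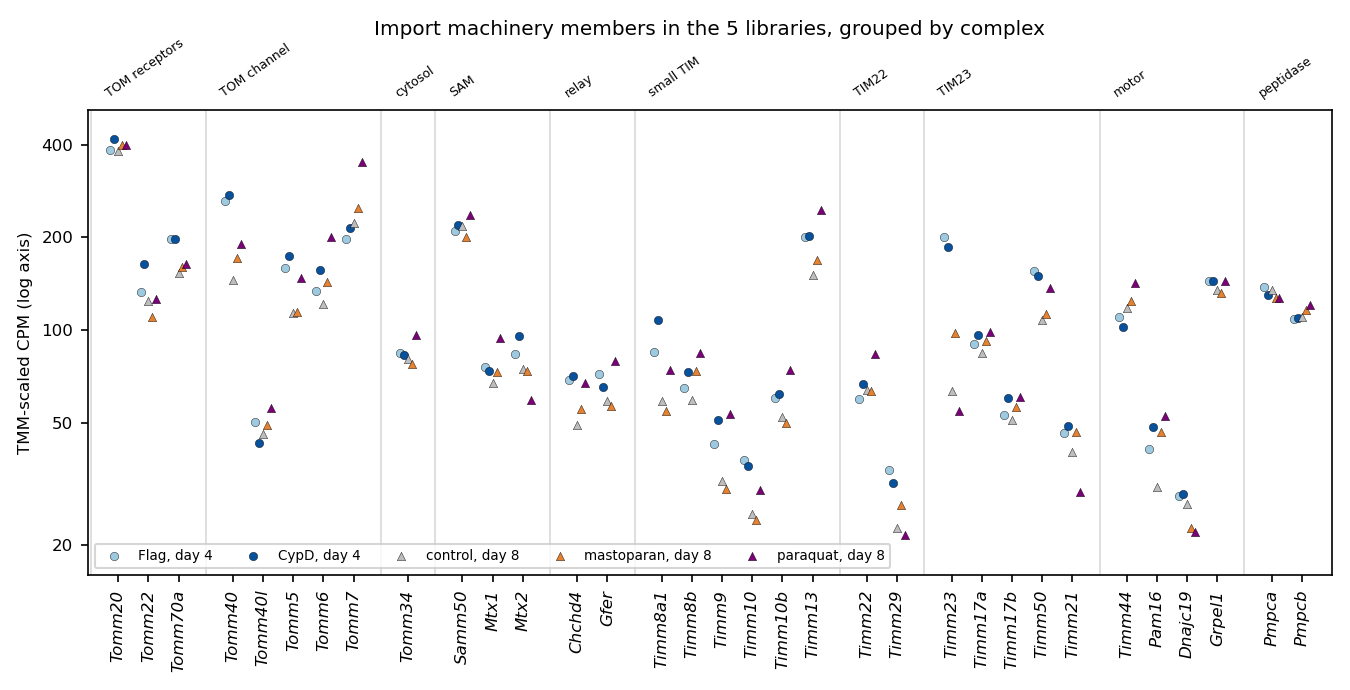
Level of each of the 33 measured members in TMM-scaled CPM (log axis), grouped by complex; circles are the 2 day-4 libraries and triangles the 3 day-8 libraries, 1 point per library with no error bar. Timm23 and Tomm40 had all 3 day-8 points well below the day-4 points, while Tomm20, Grpel1, Pmpca and Pmpcb varied little.

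Per length, the small subunits of the TOM channel stood highest by their median over the libraries, although in Flag Timm23, at 284 TPM, was above Tomm7, at 273 TPM. On the deposited TPM scale Tomm6, a small subunit that steadies the TOM channel, had 327 TPM in Flag, 347 in CypD, 278 in the day-8 control, 301 with mastoparan and 368 with paraquat. Tomm5 and Tomm7, the other small channel subunits, ranged from 268 to 432 TPM and from 273 to 385 TPM, so these 3 overlapped and their order was not separated by the libraries. The channel itself, Tomm40, ranged from 136 to 260.5 TPM, and its paralog Tomm40l from 27.2 to 51.7 TPM, below Tomm40 in every library.

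Among the receptors Tomm22 was the highest in TPM, with 212 TPM in Flag, 257 in CypD, 186 in the day-8 control, 168 with mastoparan and 162 with paraquat. Tomm20 followed at 95.2 to 122 TPM and Tomm70a, the receptor for carrier precursors, at 51.9 to 79.0 TPM, with no overlap between these 3 genes in TPM. Tomm34, a cytosolic chaperone partner, had 66.7 TPM in Flag, 63.7 in CypD, 61.5 in the day-8 control, 57.3 with mastoparan and 60.5 with paraquat. In the SAM complex the beta-barrel insertase Samm50 had 192 TPM in Flag, 195 in CypD, 193 in the day-8 control, 171 with mastoparan and 172 with paraquat. Its partners Mtx1 and Mtx2 ranged from 136 to 175 and 67.0 to 133 TPM, and Samm50 was above both in every library. In the relay, the oxidoreductase Chchd4 had 85.8 TPM in Flag, 85.2 in CypD, 59.3 in the day-8 control, 64.3 with mastoparan and 66.2 with paraquat, and Gfer, the sulfhydryl oxidase that recharges it, was lower in every library at 45.7 to 62.0 TPM.

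Timm13 was the highest of the small Tim chaperones by its median, with 255 TPM in Flag, 248 in CypD, 184 in the day-8 control, 199 with mastoparan and 246 with paraquat. Timm8b overlapped it at 178 to 220.0 TPM, Timm10b reached 122 to 182, and the others, Timm8a1, Timm9 and Timm10, stayed between 48.98 and 113 TPM. In TIM22 the channel Timm22 had 106 TPM in Flag, 106 in CypD, 99.5 in the day-8 control, 75.3 with mastoparan and 92.8 with paraquat, and Timm29, the lowest of the 33 genes in every library, had 16.8 TPM in Flag, 14.7 in CypD, 10.5 in the day-8 control, 12.0 with mastoparan and 8.18 with paraquat. In TIM23 the receptor Timm50 had 217 TPM in Flag, 187 in CypD, 149 in the day-8 control, 129 with mastoparan and 175 with paraquat, and the channel Timm23 ranged from 70.9 to 284 TPM, the widest spread of the complex. Timm17a at 155 to 199.9 TPM lay above its paralog Timm17b at 108 to 144 TPM in every library.

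In the motor, Pam16, a J-like protein that holds back the stimulation of Hsp70, had 118 TPM in Flag, 129 in CypD, 85.3 in the day-8 control, 126 with mastoparan and 120.4 with paraquat. Timm44, the Hsp70 anchor, overlapped it at 89.4 to 117 TPM, and the J protein Dnajc19 and the nucleotide exchange factor Grpel1 were lower at 42.4 to 70.4 and 48.7 to 62.0 TPM. Of the peptidase pair, catalytic Pmpcb had 108 TPM in Flag, 102 in CypD, 106 in the day-8 control, 103 with mastoparan and 93.2 with paraquat, above its partner Pmpca at 50.5 to 67.4 TPM in every library.

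Timm23 needed a closer reading, since an intronless near copy is annotated beside it in these tables. Timm23 (ENSMUSG00000013701, mm10 chromosome 14, 32180162 to 32201898, minus strand) has 7 exons in its main transcript, and the near copy Gm10273 is 1 exon on chromosome 10 (59395632 to 59396757, plus strand). Their coding sequences of 627 bases were identical, and 91.0% of the 49-base windows of that Timm23 transcript occur in Gm10273. Pam16 (ENSMUSG00000014301, chromosome 16, 4616464 to 4624988, minus strand) has the same kind of near copy, Gm9803, 1 exon on chromosome 10 (43524084 to 43524646, plus strand). Those coding sequences of 375 bases were identical too, with 88.7% of the windows of the 5-exon Pam16 transcript shared. The 4 stretches printed here are shown because a read that falls inside them has the same letters in the gene and in its copy. They are the 30 bases on each side of an exon junction in the gene, exon 4 to 5 of Timm23 and exon 3 to 4 of Pam16, and the same 60 bases in the copy, from the GRCm38 (mm10) reference in the direction of the transcript. The capitals mark the bases on either side of the junction. In the genes an intron of 2002 bases (Timm23) or 247 bases (Pam16) lies between them, and in the copies nothing does.
Timm23, chr14:32193403-32193432 joined to chr14:32191371-32191400, minus strand: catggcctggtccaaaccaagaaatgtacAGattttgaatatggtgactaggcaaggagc
Gm10273, chr10:59396069-59396128, plus strand: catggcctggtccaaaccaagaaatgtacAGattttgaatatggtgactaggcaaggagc
Pam16, chr16:4617126-4617155 joined to chr16:4616849-4616878, minus strand: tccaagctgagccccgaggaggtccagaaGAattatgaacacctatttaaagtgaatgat
Gm9803, chr10:43524363-43524422, plus strand: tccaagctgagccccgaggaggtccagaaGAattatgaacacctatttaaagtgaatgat

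The deposited counts divided these reads differently in each library. Timm23 had 508 counts in Flag, 640 in CypD, 195 in the day-8 control, 279 with mastoparan and 126 with paraquat, and Gm10273 had 35 counts in Flag, 118 in CypD, 235 in the day-8 control, 116 with mastoparan and 215 with paraquat. Timm23 thus held 93.6% in Flag, 84.4% in CypD, 45.3% in the day-8 control, 70.6% with mastoparan and 37.0% with paraquat of the counts of the pair, most of them at day 4 and less than its copy in the day-8 control and paraquat libraries. Summed, the pair had 214 CPM in Flag, 219.5 in CypD, 139 in the day-8 control, 139 with mastoparan and 148 with paraquat: the 2 day-4 libraries were close together, and so were the 3 day-8 libraries. Pam16 had 104 counts in Flag, 167 in CypD, 95 in the day-8 control, 133 with mastoparan and 121 with paraquat, and Gm9803 had 0 counts in Flag, 0 in CypD, 29 in the day-8 control, 12 with mastoparan and 35 with paraquat, so the copy received counts in the day-8 libraries and in neither day-4 library. The pair summed to 41.0 CPM in Flag, 48.4 in CypD, 40.2 in the day-8 control, 50.9 with mastoparan and 67.6 with paraquat. Below, values of Timm23 and Pam16 are those of the gene alone unless the pair is named, and the sum was chosen after seeing the data.

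**Figure D2:**
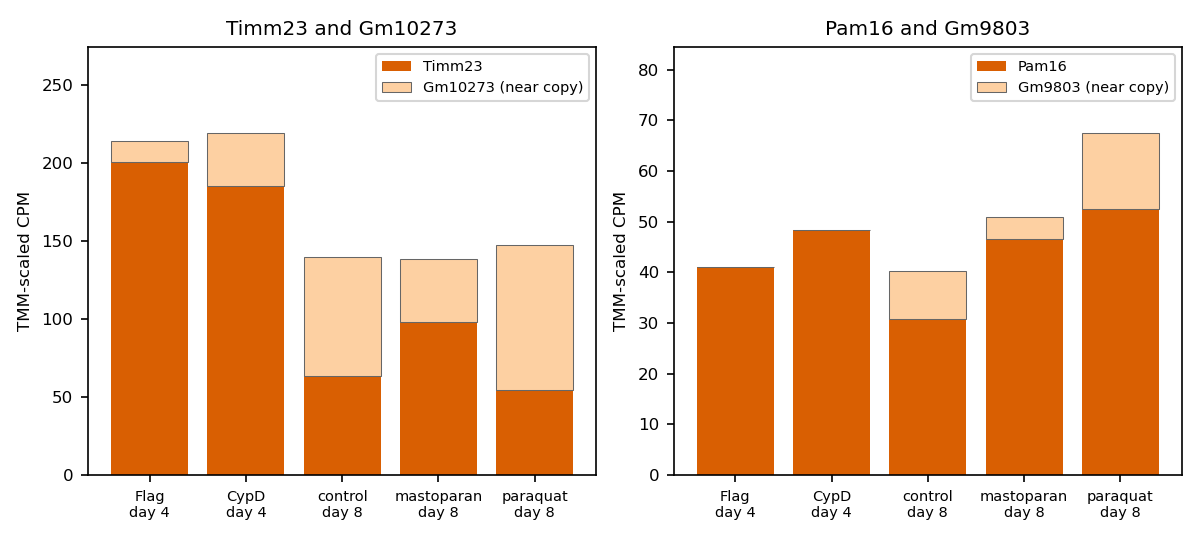
Stacked TMM-scaled CPM of Timm23 with Gm10273 and of Pam16 with Gm9803 in each of the 5 libraries (1 library per bar, no error bar). The Timm23 segment varied from 54.6 to 200.5 CPM, while the 3 day-8 stacks all lay between 139 and 148 CPM and the day-4 stacks at 214 and 219 CPM.

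Other members share sequence as well. Timm8a1 shared 41.1% of its windows with Gm9797, which had 44 counts in Flag, 23 in CypD, 0 in the day-8 control, 43 with mastoparan and 0 with paraquat. Tomm40l shared 56.9% with the overlapping gene Nr1i3, Gfer 27.5% with Dst and Dnajc19 23.7% in all, and these 6 genes, each at 20% or more, are uncertain where the counting could split their reads. Nr1i3 had at most 4 counts in any library. Tomm6 shared 18.7%, part of it with its antisense gene Tomm6os, Pmpca 18.9% with Inpp5e, Timm10b 16.6% and Grpel1 10.4%. Tomm40 shared 4.90% with the antisense gene Gm20512. The partner of Dnajc19 with the most shared windows, 17.0%, is a gene listed by its identifier alone (ENSMUSG00000103988), which had 22 counts in Flag, 43 in CypD, 32 in the day-8 control, 56 with mastoparan and 57 with paraquat. Summed, the 2 had 37.5 CPM in Flag, 41.7 in CypD, 37.6 in the day-8 control, 42.5 with mastoparan and 46.8 with paraquat. Only 17.0% of the windows are shared, so this sum, here and below, may hold many counts of the partner alone. The sources used here do not say whether the counting used strand.

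Day 8 was set beside day 4 through the day-8 control and the Flag library, with day and construct changing together, so they cannot be told apart. Most members were lower in the day-8 control: 28 of the 33 had a log2 ratio (TMM-scaled CPM with a pseudocount of 0.5 CPM) below 0, with a median of -0.16, while 49.99% of the 13540 genes tested were above 0 and their median was -0.00; on the deposited TPM scale the medians were -0.23 and -0.04. Of the members 3 were at least 1.5-fold lower and 0 at least 1.5-fold higher, where 12.9% of all genes tested passed lower and 18.6% higher. In TPM these counts were 3 lower and 0 higher too, beside 14.7% and 16.7%. By the counting interval, 10 members were below 1 and 1, Tomm7, above 1, beside 18.9% and 18.4% of all genes. Genes with few counts seldom have an interval clear of 1 but pass 1.5-fold more easily. All genes tested go down to a mean of 1 CPM, so these shares, here and below, are not matched for level.

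Tomm40, the TOM channel (ENSMUSG00000002984, chromosome 7, 19701313 to 19715438, minus strand), had 262 CPM in Flag, 274 in CypD, 145 in the day-8 control, 172 with mastoparan and 191 with paraquat. All 3 day-8 libraries lay below both day-4 libraries. The control was 1.8-fold (95% interval 1.6 to 2.04) lower than Flag, a log2 ratio of -0.85. Timm23 had 200.5 CPM in Flag, 185 in CypD, 63.2 in the day-8 control, 97.9 with mastoparan and 54.6 with paraquat, and its control was 3.17-fold (95% interval 2.68 to 3.76) lower than Flag, but 1.54-fold (95% interval 1.35 to 1.75) lower for the pair, a log2 ratio of -1.66 against -0.62. Timm29, a TIM22 subunit (ENSMUSG00000048429, chromosome 9, 21592722 to 21595970, plus strand), had 35.1 CPM in Flag, 31.9 in CypD, 22.7 in the day-8 control, 27.0 with mastoparan and 21.7 with paraquat, and was 1.55-fold (95% interval 1.12 to 2.15) lower in the control than in Flag.

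The members next lowest in the control were spread over several complexes. Timm10, the partner of Timm9 in the carrier chaperone (ENSMUSG00000027076, chromosome 2, 84826997 to 84830213, plus strand), had 37.9 CPM in Flag, 36.2 in CypD, 25.3 in the day-8 control, 24.2 with mastoparan and 30.3 with paraquat and a log2 ratio of -0.57 between control and Flag. Timm50 had 156 CPM in Flag, 150 in CypD, 108 in the day-8 control, 113 with mastoparan and 137 with paraquat, with a ratio of -0.53, and Tomm5 had 159 CPM in Flag, 173 in CypD, 113 in the day-8 control, 114 with mastoparan and 148 with paraquat, with -0.49. Timm8a1, the chaperone gene mutated in a human deafness-dystonia syndrome, had 84.8 CPM in Flag, 107 in CypD, 58.7 in the day-8 control, 54.7 with mastoparan and 74.1 with paraquat, with -0.53, and -0.79 with its near copy added. In all of these the day-8 libraries were below both day-4 libraries.

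A few members did not follow. Tomm7 had 197 CPM in Flag, 215 in CypD, 223 in the day-8 control, 248 with mastoparan and 352 with paraquat, and was 1.13-fold (95% interval 1.01 to 1.27) higher in the control than in Flag, the highest ratio of the 33. Timm44 had 110.1 CPM in Flag, 102 in CypD, 118 in the day-8 control, 124 with mastoparan and 142 with paraquat, and its log2 ratio of 0.10 had a counting interval that held 1. So did that of Timm22, which had 59.6 CPM in Flag, 66.9 in CypD, 63.9 in the day-8 control, 63.5 with mastoparan and 83.6 with paraquat; in this gene the days overlapped. The days overlapped in Samm50 too, which had 209 CPM in Flag, 219 in CypD, 218 in the day-8 control, 201 with mastoparan and 237 with paraquat.

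Over all 5 libraries, 13 of the 33 members had all 3 day-8 levels below both day-4 levels, beside 28.1% of the 13584 genes tested, and 3 (Tomm7, Timm44 and Pmpcb) had them all above, beside 28.5%. The 13 were Tomm22, Tomm70a, Tomm40, Tomm5, Mtx2, Chchd4, Timm8a1, Timm10, Timm29, Timm23, Timm50, Dnajc19 and Grpel1. With its partner added Dnajc19 leaves this list, since its days then overlap. Some gaps between the days were small: the nearest libraries of Grpel1 had 144.4 CPM (day 4) and 143.8 CPM (day 8), those of Pmpcb 109.8 and 109.9. With a gap of at least 1.5-fold between the nearest libraries, 1 member (Timm23, without its copy) was below and 0 above, beside 3.61% and 8.72% of all genes. On the deposited TPM scale 23 members were below and 2 above, beside 32.6% and 20.3% of all genes. The median difference of mean log2 CPM between the days was -0.08 for the members and -0.00 for all genes.

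**Figure D3:**
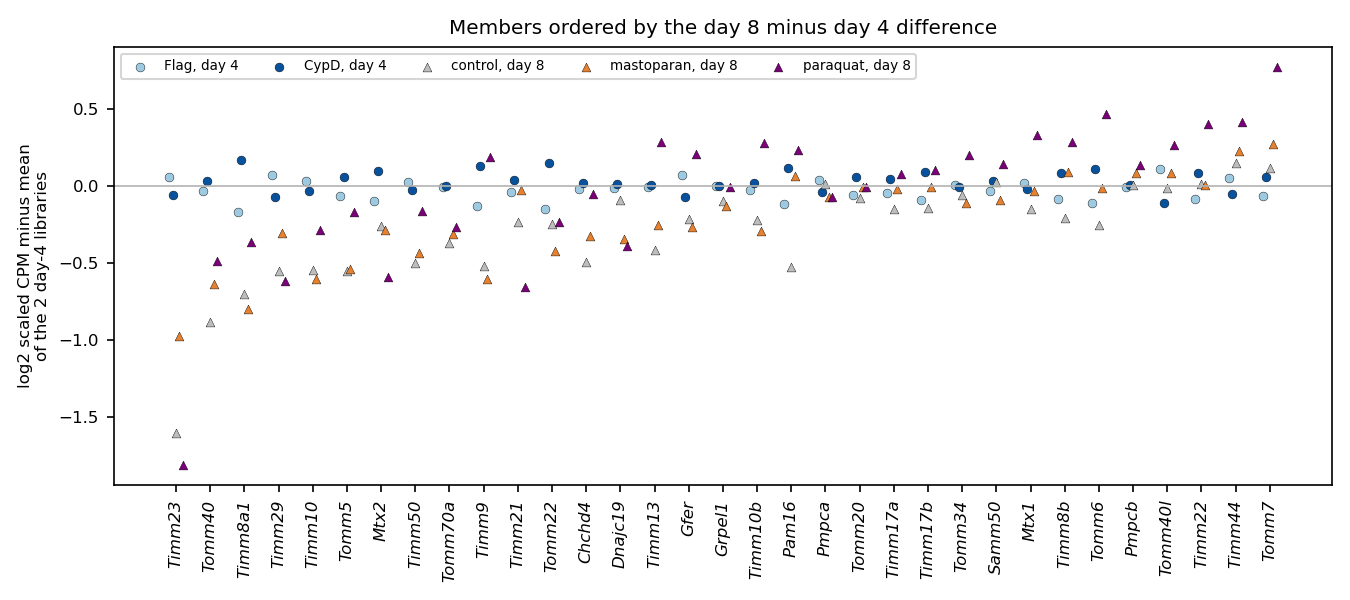
Log2 scaled CPM of each measured member in each of the 5 libraries, minus the mean of its 2 day-4 libraries, ordered by the difference of the day means (circles day 4, triangles day 8, no error bars). Timm23, Tomm40 and Timm8a1 lie farthest below 0 at day 8, and Tomm7 with paraquat farthest above.

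The promoters of the 3 lowest members with under 20% shared windows were read for motifs of factors known for nuclear genes of mitochondrial proteins. The 250 bases before the RefSeq start (GRCm38.p6) are printed in the direction of transcription, with the motif letters found in capitals.
Tomm40, chr7:19715430-19715679, minus strand: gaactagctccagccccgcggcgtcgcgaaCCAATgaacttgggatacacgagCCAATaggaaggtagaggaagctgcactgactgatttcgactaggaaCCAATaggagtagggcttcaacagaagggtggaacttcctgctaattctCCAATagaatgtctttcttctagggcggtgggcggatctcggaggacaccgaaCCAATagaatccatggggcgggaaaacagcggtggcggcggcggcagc
Timm29, chr9:21592472-21592721, plus strand: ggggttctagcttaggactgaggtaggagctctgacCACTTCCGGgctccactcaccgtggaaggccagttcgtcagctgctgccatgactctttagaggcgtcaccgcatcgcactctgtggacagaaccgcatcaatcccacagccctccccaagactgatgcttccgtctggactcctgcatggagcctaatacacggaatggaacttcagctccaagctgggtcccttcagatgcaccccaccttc
Timm10, chr2:84826771-84827020, plus strand: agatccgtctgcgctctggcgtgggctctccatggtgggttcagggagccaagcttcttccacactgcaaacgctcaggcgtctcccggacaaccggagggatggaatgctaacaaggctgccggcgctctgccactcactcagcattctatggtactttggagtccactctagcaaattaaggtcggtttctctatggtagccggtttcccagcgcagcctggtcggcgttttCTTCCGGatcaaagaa

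Tomm40 held 5 CCAAT boxes (letters CCAAT on either strand, the site of the factor NF-Y), as many as 0.309% of the 17491 protein-coding promoters and 0.451% of the 9970 expressed here. This was looked up after the sequence was seen. Timm29 and Timm10 each held an ETS core (CCGGAAG on either strand, the site of factors such as GABPA), and Timm29 the longer CCGGAAGTG, which contains it. Of the 31 members with a RefSeq promoter, 12 (38.7%) held the shorter ETS core, beside 10.2% of all promoters and 15.4% of the expressed ones, and 5 (16.1%) the longer, beside 2.12% and 3.39%. The NRF1 core CGCATGCG was found for 1, Timm13 (3.23%, beside 2.32% and 3.61%), the YY1 core AAGATGGCG for 0 (0.840% and 1.34%) and a CCAAT box for 9 (29.0%, beside 39.5% and 41.0%). The letters were chosen after a first look at matches, and a match is a description of the sequence, not a bound site.

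At day 4 the members differed little between CypD and Flag. None of the 33 was 1.5-fold higher or lower (0 and 0, beside 5.22% and 5.75% of the 13244 genes tested), nor was any in TPM (0 and 0, beside 4.83% and 7.38%). The standard deviation of the log2 ratios was 0.14 for the members and 0.44 for all genes. All genes tested go down to a mean of 1 CPM, where counting alone spreads ratios more, so these shares are not matched for level. Their log2 ratios ran from -0.22 to 0.34, 23 above 0 and 10 below, with a median of 0.05 beside -0.02 for all genes; on the TPM scale these were -0.01 and -0.06. The counting interval lay above 1 for 4 members (Tomm20, Tomm22, Tomm6 and Timm8a1) and below 1 for 0, beside 4.13% and 4.19% of all genes.

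The highest was Timm8a1, 1.27-fold (95% interval 1.07 to 1.5) higher in CypD, and 1.12-fold (95% interval 0.952 to 1.31) with its near copy Gm9797 added. Tomm22 had 133 CPM in Flag, 164 in CypD, 125 in the day-8 control, 110.2 with mastoparan and 126 with paraquat, 1.23-fold (95% interval 1.08 to 1.41) higher in CypD than in Flag. Timm9, the carrier chaperone partner of Timm10, had 42.6 CPM in Flag, 51.0 in CypD, 32.4 in the day-8 control, 30.5 with mastoparan and 53.3 with paraquat, and its ratio of 1.2-fold (95% interval 0.936 to 1.53) held 1 in the interval. Tomm40l had 50.1 CPM in Flag, 42.9 in CypD, 46.1 in the day-8 control, 49.1 with mastoparan and 55.9 with paraquat. Gfer had 71.8 CPM in Flag, 65.2 in CypD, 59.0 in the day-8 control, 56.8 with mastoparan and 79.3 with paraquat. These and Timm29 were the lowest in CypD, at log2 ratios of -0.22, -0.14 and -0.14 with intervals that held 1. The Timm23 pair was 1.02-fold (95% interval 0.916 to 1.15) in CypD against Flag.

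With mastoparan at day 8, 2 of the 33 members were at least 1.5-fold higher than in the control and 0 lower (beside 5.29% and 5.70% of the 13640 genes tested), and both have a near copy with the same coding sequence. Timm23 was 1.55-fold (95% interval 1.28 to 1.87) higher and Pam16 1.51-fold (95% interval 1.16 to 1.99) higher. Summed with their copies they were 0.994-fold (95% interval 0.865 to 1.14) and 1.27-fold (95% interval 0.989 to 1.62) of the control, and neither passed 1.5-fold. In TPM 0 members were that much higher and 0 lower, beside 4.80% and 6.83%. The log2 ratios of all members had a median of 0.07, 20 above 0 and 13 below, beside 0.01 for all genes; on the TPM scale both medians were -0.04.

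Counting intervals were above 1 for 6 members, Tomm40, Tomm6, Tomm7, Timm8b, Timm23 and Pam16, and below 1 for 0, beside 4.08% and 3.28% of all genes. Tomm40 was 1.19-fold (95% interval 1.04 to 1.35) higher with mastoparan. Timm8b, a paralog of Timm8a1, had 64.7 CPM in Flag, 73.0 in CypD, 59.3 in the day-8 control, 73.3 with mastoparan and 84.0 with paraquat, and was 1.24-fold (95% interval 1.01 to 1.52) higher. At the low end Dnajc19 had 28.8 CPM in Flag, 29.2 in CypD, 27.2 in the day-8 control, 22.8 with mastoparan and 22.1 with paraquat, with a log2 ratio of -0.25, followed by Tomm22 at -0.18 and Samm50 at -0.12, all with intervals that held 1. With its partner added Dnajc19 had 0.17.

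With paraquat most members lay above the control. Of the 33 members 27 had a log2 ratio above 0 against the same day-8 control library as above, with a median of 0.26, while 47.5% of the 13666 genes tested were above 0 with a median of -0.03; on the deposited TPM scale the medians were -0.06 and -0.28. At least 1.5-fold higher were 5 members, Tomm6, Tomm7, Timm9, Timm13 and Pam16, and 0 were that much lower, beside 8.22% and 10.5% of all genes. On the deposited TPM scale 0 members were that much higher and 3 lower, Tomm40l, Mtx2 and Timm21, beside 4.50% and 22.1%. Mtx2 and Timm21 were below the control in CPM too, but Tomm40l was 1.21-fold higher there, with a counting interval that held 1. In TPM Tomm40l had 51.7 in the control and 27.2 with paraquat, and its deposited average length was 1327 and 2472 bases. The counting interval lay above 1 for 16 members and below 1 for 1, Mtx2, beside 11.3% and 9.83% of all genes, shares not matched for level or length. The usual reprogramming factors were lower in this library than in the control: Pou5f1 had 3072 CPM in the control and 1868 with paraquat, Sox2 944 and 526, Klf4 1901 and 860.0, and Myc 1443 and 827, where mastoparan had 2946, 908, 1641 and 1373. Their part in the result was not tested.

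Pam16 had 41.0 CPM in Flag, 48.4 in CypD, 30.8 in the day-8 control, 46.7 with mastoparan and 52.4 with paraquat. It was 1.7-fold (95% interval 1.29 to 2.25) higher with paraquat than in the control, and 1.68-fold (95% interval 1.32 to 2.15) higher with its copy added. Tomm6 (ENSMUSG00000033475, chromosome 17, 47686646 to 47688386, minus strand) had 134 CPM in Flag, 156 in CypD, 122 in the day-8 control, 144 with mastoparan and 200.2 with paraquat, and was 1.65-fold (95% interval 1.43 to 1.89) higher. Paraquat was the highest library for Tomm6. Timm9 (ENSMUSG00000021079, chromosome 12, 71123173 to 71136684, minus strand) was 1.64-fold (95% interval 1.252 to 2.16) higher, but its level of 53.3 CPM lay close to the 51.0 CPM of the day-4 CypD library. Timm13 (ENSMUSG00000020219, chromosome 10, 80899450 to 80900969, minus strand) had 200.5 CPM in Flag, 202 in CypD, 151 in the day-8 control, 169 with mastoparan and 246 with paraquat and was 1.63-fold (95% interval 1.44 to 1.85) higher, and Tomm7 (ENSMUSG00000028998, chromosome 5, 23838944 to 23844161, minus strand) was 1.58-fold (95% interval 1.42 to 1.75) higher. On the CPM scale the paraquat library was the highest of the 5 in both. On the TPM scale it was for Tomm7, while Timm13, at 246 TPM, was below the 255 TPM of Flag and the 248 TPM of CypD.

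At the low end were Timm21, Mtx2 and Dnajc19, the last from the motor group that also holds Pam16. Timm21, which couples TIM23 to the outer membrane and respiratory chain, had 46.2 CPM in Flag, 48.6 in CypD, 40.2 in the day-8 control, 46.7 with mastoparan and 29.9 with paraquat, 1.35-fold (95% interval 0.994 to 1.83) lower with paraquat. Mtx2 had 83.7 CPM in Flag, 95.9 in CypD, 74.9 in the day-8 control, 73.3 with mastoparan and 59.4 with paraquat, 1.26-fold (95% interval 1.02 to 1.57) lower, while its SAM partner Mtx1 was 1.39-fold (95% interval 1.15 to 1.69) higher. Dnajc19 was 1.23-fold (95% interval 0.86 to 1.78) lower, a log2 ratio of -0.30, but with its partner added the ratio turned to 0.31, 1.24-fold (95% interval 0.948 to 1.63) of the control. The Timm23 pair was 1.06-fold (95% interval 0.916 to 1.22) of the control, where Timm23 alone had -0.21 on the log2 scale.

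By complex, the 6 measured small Tim chaperones were all above 0 with a median log2 ratio of 0.50, the 5 TOM channel genes all above 0 with 0.39, and the 3 TOM receptors above 0 with 0.07. The relay genes Chchd4 and Gfer were 1.36-fold (95% interval 1.08 to 1.72) and 1.34-fold (95% interval 1.09 to 1.66) higher. Gfer shares windows with Dst, which had 555 counts in the day-8 control and 318 with paraquat, more than Gfer. Gfer and Dst summed were 0.908-fold (95% interval 0.809 to 1.02) of the control. Most counts of that sum are from Dst in both libraries, so it cannot show how reads of Gfer were divided. Of the TIM23 genes 3 were above 0 and 2 below, and their median was 0.23.

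**Figure D4:**
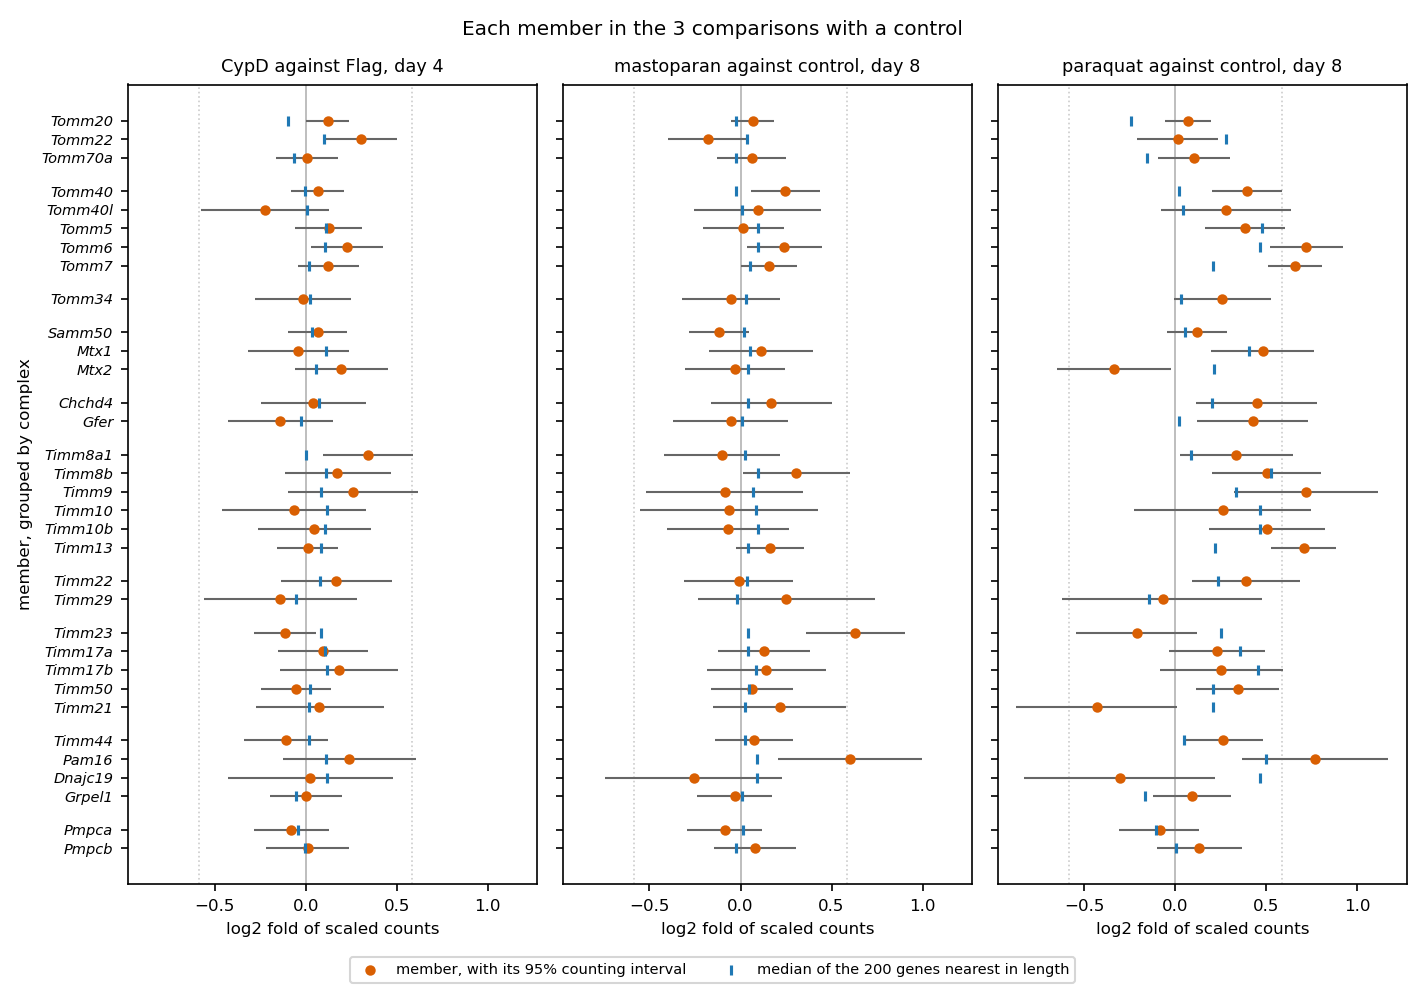
Log2 fold of scaled counts of each measured member, grouped by complex, in 3 comparisons of 1 library with 1 library; lines are 95% counting intervals, blue ticks the median log2 ratio of the 200 other genes nearest in effective length, dotted lines 1.5-fold. With paraquat the ticks of the short genes move to the right with the members. There 10 members lie left of their tick, farthest Dnajc19 (without its partner), Timm21 and Mtx2.

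The log2 ratios of all genes moved along transcript length. The members are short, with a median effective length of 1076 bases beside 2422 for all genes tested, and 12 of them fell in the shortest decile of genes. In that decile the median log2 ratio of all genes between paraquat and control was 0.40, and in the longest decile -0.20. For mastoparan these medians were 0.08 and -0.04, for CypD against Flag 0.10 and -0.08, and for the control against Flag 0.14 and -0.11.

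The median of the 200 other genes nearest in length was therefore subtracted from each gene. With paraquat the members' median became 0.13, 23 above 0 and 10 below. No member was then at least 1.5-fold higher and 2 were lower, Timm21 at -0.63 and Dnajc19 at -0.76, beside 6.81% and 8.52% of all genes. With its partner added Dnajc19 had -0.15 and did not pass. Tomm6 moved from 0.72 to 0.25, Pam16 from 0.76 to 0.26, Timm8b from 0.50 to -0.03, Timm13 from 0.70 to 0.48 and Tomm7 from 0.66 to 0.45. The medians became 0.14 for the small Tim chaperones (4 of 6 above 0), 0.25 for the TOM channel (4 of 5), 0.25 for the TOM receptors (2 of 3, up from 0.07) and -0.21 for TIM23 (1 of 5).

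For the other comparisons the subtraction gave medians of 0.02 for CypD (0 members higher and 0 lower, beside 5.44% in each direction) and 0.05 for mastoparan (0 and 0, beside 5.24% and 5.72%). Between control and Flag it moved the median further down, to -0.28 with 29 of 33 below 0. There 5 members were at least 1.5-fold lower and 0 higher, beside 12.7% and 18.3% of all genes: Timm23, Tomm40, Timm10, Timm29 and Tomm5, at -1.85, -0.90, -0.70, -0.60 and -0.60. The Timm23 pair had -0.82.

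**Figure D5:**
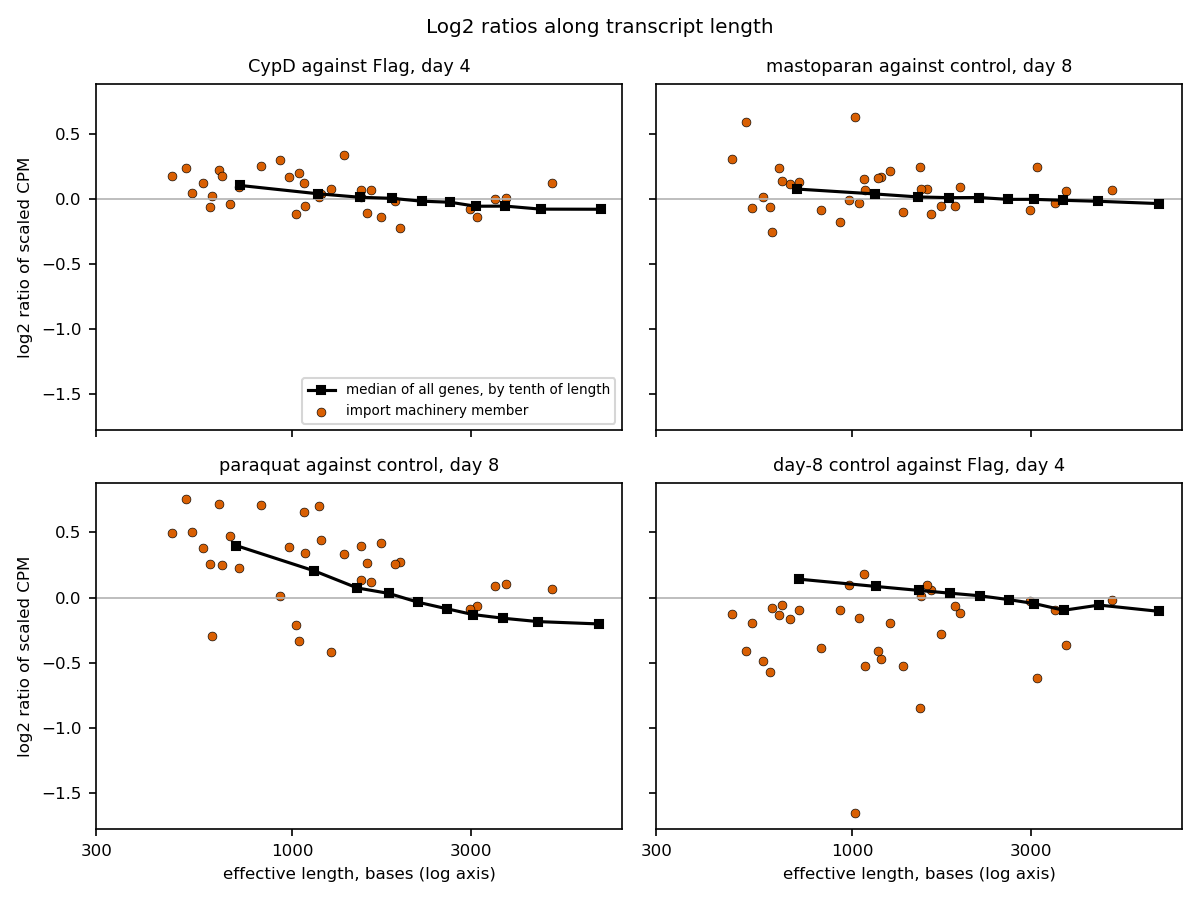
Log2 ratio of scaled CPM of each measured member (orange) against its effective length in bases (log axis), with the median of all genes in each decile of length (black), for 4 comparisons of 1 library with 1 library. With paraquat the black line falls from 0.40 to -0.20 and most members lie near or above it; between the day-8 control and Flag most lie below it.

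Set against each other at day 8, mastoparan and paraquat (the libraries already used above) differed in 3 members past 1.5-fold, 2 higher with mastoparan (Timm23 and Timm21) and 1 lower (Timm9), beside 9.27% and 7.72% of the 13680 genes tested. In TPM the same 3 members passed in the same directions, beside 17.8% and 5.32%. The median log2 ratio was -0.19, 6 above 0 and 27 below, beside 0.02 for all genes; on the TPM scale these were 0.04 and 0.22. Timm23 was 1.79-fold (95% interval 1.45 to 2.23) higher with mastoparan, and its pair 0.938-fold (95% interval 0.81 to 1.09), so the order of the libraries turned. Timm21 was 1.56-fold (95% interval 1.16 to 2.12) higher, and Timm29 1.247-fold (95% interval 0.863 to 1.82).

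Timm9 was 1.75-fold (95% interval 1.32 to 2.32) lower with mastoparan than with paraquat. Timm10b, a small chaperone held at TIM22, had 60.0 CPM in Flag, 62.0 in CypD, 52.2 in the day-8 control, 49.8 with mastoparan and 74.1 with paraquat, 1.49-fold (95% interval 1.18 to 1.87) lower, and Timm13 was 1.46-fold (95% interval 1.29 to 1.65) lower. By the counting interval 2 members were above 1 and 13 below, beside 8.89% and 10.4% of all genes. With the length trend removed the median was -0.11, and 2 members stayed past 1.5-fold higher, Timm23 (without its copy) at 1.06, or 0.13 for the pair, and Timm21 at 0.76, and 0 lower, beside 8.11% and 7.35%.

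On the CPM scale the 4 members that varied least were Pmpca, Grpel1, Tomm20 and Pmpcb, of the peptidase, motor and receptor groups. Over the 5 libraries the highest CPM over the lowest was 1.08 for Pmpca, 1.1 for Grpel1, 1.1 for Tomm20 and 1.11 for Pmpcb, and 3.67 for Timm23 without its copy. In TPM the same ratio was 1.33 for Pmpca, 1.27 for Grpel1, 1.28 for Tomm20 and 1.16 for Pmpcb, and the lowest was 1.13 for Samm50. Tomm20 stayed within 380.1 to 418 CPM, and Pmpca within 127 to 138 CPM.

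The deposited average transcript length, which moves with isoform usage as well as with how reads were divided, differed by at least 1.1-fold between libraries for 10 of the 33 members, beside 39.6% of all genes. Only 21 of the 33 had a length that was not the same in every library, and the others could not pass. That share is not given here for all genes, so the 2 values are not matched. Tomm40l moved most, with 2012 bases in Flag, 2257 in CypD, 1327 in the day-8 control, 1877 with mastoparan and 2472 with paraquat. It shares windows with Nr1i3, which had 0 counts in Flag, 1 in CypD, 4 in the day-8 control, 4 with mastoparan and 0 with paraquat. Past 1.2-fold were 5 members (Tomm40l, Timm22, Timm23, Timm50 and Timm44), beside 28.0% of all genes.

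Around the machinery, 65 other genes of the pathway (partners such as Hspa9, the cristae-organising MICOS complex, proteases, and imported cargo) were all counted. Past 1.5-fold were 0 higher and 0 lower for CypD, 1 and 1 for mastoparan, 6 and 2 for paraquat and 6 and 5 for the control against Flag. The shares of all genes were 5.22% and 5.75%, 5.29% and 5.70%, 8.22% and 10.5%, and 18.6% and 12.9%. Their median log2 ratios were 0.04, 0.05, 0.13 and -0.12. With paraquat 5 of the 6 higher genes were cargo of the Chchd4 relay, whose 15 genes had a median of 0.51, and of 0.12 with the length trend removed. Of the 2 lower genes 1 was relay cargo too, Cmc4, with 6 counts against 16 in the control. The log2 ratio of Cmc4 was -0.88, and -1.33 with the length trend removed, and its counting interval held 1. With that trend removed 0 of the 65 genes were at least 1.5-fold higher with paraquat and 2 lower. Cox6b1, a subunit of cytochrome oxidase, was 1.68-fold (95% interval 1.54 to 1.82, 1267 against 1010 counts) higher, and Chchd10 1.64-fold (95% interval 1.38 to 1.96, 293 against 238 counts) higher. Xpnpep3, a mitochondrial aminopeptidase, was 4.3-fold (95% interval 1.47 to 17.1, 4 against 23 counts) lower with paraquat. Between control and Flag, Slc25a10, the dicarboxylate carrier, was 2.08-fold (95% interval 1.65 to 2.65, 115 against 197 counts) lower and Cmc1, a relay cargo protein of cytochrome oxidase assembly, 2.08-fold (95% interval 1.58 to 2.77, 185 against 73 counts) higher. With mastoparan Coa7, another assembly factor, was 1.69-fold (95% interval 1.06 to 2.72, 50 against 32 counts) higher and the protease Oma1 1.65-fold (95% interval 1.1 to 2.53, 38 against 68 counts) lower.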

How the data were processed

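RNA was sequenced from 5 libraries of mouse embryonic fibroblasts, 2 at day 4 and 3 at day 8 of reprogramming, and per the labels' protocols 1 ug of total RNA went into each TruSeq library. Bowtie2 version 2.2.5 and the mm10 genome are named in the submitters' processing notes; no source used here names the counting program or its annotation. The deposited tables hold expected counts, TPM and FPKM values beside 2 transcript lengths (average and effective), per the file headers. Between 16.8% and 19.0% of the deposited expected counts in a library had a fractional part, so the authors' counting divided some reads between genes or transcripts. FPKM were used for library sums and for the order of members.

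Expected counts were rounded and scaled by TMM factors from edgeR 4.0.16 (0.951 for paraquat, 1.01 to 1.02 for the others). Log2 ratios used a pseudocount of 0.5 CPM and genes that averaged 1 CPM or more in the libraries compared, so low genes are understated. Folds are ratios of scaled counts with exact Clopper-Pearson 95% intervals; amplified reads are not independent molecules, so these and the floor of 3 counts cover counting error only. A gene was counted as different at 1.5-fold. The length trend was taken from the 200 other tested genes nearest in effective length. Shared sequence is the share of 49-base windows found in another gene of GENCODE M21. The code was tested on simulated data. Python 3.11.15 and R 4.3.3 were used.

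The members, lists and tests were chosen with earlier results of these data known. All members may be named; values in all libraries are given for those past 1.5-fold, the 3 highest and 3 lowest of each comparison and the highest TPM of each complex. Other settings were library totals, DESeq2 1.42.0 size factors, upper-quartile factors, deposited TPM, other pseudocounts, filters, folds and numbers of neighbours, and leaving out genes with at least 20% shared windows. The sums with near copies, and of Dnajc19 with its partner, were added after seeing the data. Protein features were not analysed here.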

Additional observations from a re-analysis of the deposited data

How the results depend on the processing

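No paired analysis was possible because each group holds 1 library. For the same reason no library could be left out of a group. Over the alternatives the median log2 ratio ran from -0.01 to 0.07 for CypD, -0.04 to 0.08 for mastoparan, -0.062 to 0.31 for paraquat, -0.22 to 0.04 for mastoparan against paraquat and -0.23 to -0.14 for the control against Flag. With the length trend removed it ran from -0.00 to 0.03, -0.04 to 0.06, 0.06 to 0.15, -0.12 to -0.09 and -0.32 to -0.19. With deposited TPM the median changed sign for CypD, mastoparan, paraquat and mastoparan against paraquat, and with the trend removed for CypD and mastoparan. Library totals moved the median of all genes between paraquat and control to -0.13 and that of the members to 0.16, a difference of 0.29. TPM moved them to -0.28 and -0.062, a difference of 0.22, and between mastoparan and paraquat to 0.22 and 0.04, a difference of -0.18.

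Counts of members past 1.5-fold are small and moved more; the cause was not tested except where the setting itself changes the threshold or the genes. With deposited TPM the 2 higher with mastoparan became 0, the 5 higher with paraquat 0 and the 0 lower 3, and the members below at day 8 went from 13 to 23. With TPM and the length trend removed the 2 lower with paraquat became 4 and the 0 lower with mastoparan against paraquat 1. A 5/4-fold threshold gave 1 higher for CypD, 15 higher and 2 lower for paraquat, 10 lower for mastoparan against paraquat and 12 lower for control against Flag. A 2-fold threshold gave 0 higher for mastoparan, 0 higher for paraquat, 0 in each direction for mastoparan against paraquat and 1 lower for control against Flag. For mastoparan, library totals and a pseudocount of 2 CPM each gave 1 higher in place of 2. With the length trend removed, a pseudocount of 0.1 CPM, a minimum of 5 CPM, and 100 or 500 neighbours each gave 1 higher for mastoparan in place of 0, and 500 neighbours 1 lower for paraquat in place of 2. No filter gave 1 lower for CypD, and upper-quartile factors 2 lower for mastoparan against paraquat. Neighbours also alike in level gave 3 lower in place of 5 for control against Flag. Leaving out members with at least 20% shared windows gave 0 higher for mastoparan, 1 lower for paraquat with the length trend removed, and 1 higher for mastoparan against paraquat with and without the trend. It also took Timm23 from the members lower for control against Flag, with and without the trend, and Pam16 from those higher for paraquat. A 1.2-fold limit on average length gave 5 members in place of 10.

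Summing near copies, added after seeing the data, gave 0 higher for mastoparan and 1 higher for mastoparan against paraquat, with and without the length trend. The genes summed were Tomm40l, Timm8a1, Timm23 and Pam16, and not Gfer with Dst. It turned Timm23 from 0.63 to -0.0088 for mastoparan against control and from 0.84 to -0.092 for mastoparan against paraquat. Timm23 also turned from -0.11 to 0.03 for CypD and from -0.21 to 0.08 for paraquat. Timm8a1 turned from -0.10 to 0.25 for mastoparan against control and moved from -0.43 to -0.08 for mastoparan against paraquat. Between control and Flag Timm8a1 moved from -0.53 to -0.79, past 1.5-fold lower, and with the length trend removed from -0.51 to -0.78. The Timm23 pair stayed past 1.5-fold lower there. Summing Dnajc19 with its partner, also added after seeing the data, gave 1 lower for paraquat with the length trend removed in place of 2, and moved Dnajc19 there from -0.30 to 0.31 without that step. Depth limits members such as Timm29 and Dnajc19, with as few as 50 and 51 counts in a library, and Tomm20l and Timm8a2, with at most 1.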
